A study of Mus musculus with 12 samples.

Results

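Transcript levels of 10 enzymes that handle alcohol and aldehydes were examined in the mouse hippocampus. They are Adh5, Aldh2, Aldh1a1, Aldh1b1, Aldh3a2, Aldh7a1, Cat, Cyp2e1, Acss1 and Acss2, chosen by name and function, and they are 10 of the 35580 genes with a transcript in the deposited values. All 60 transcripts of these genes in the values were considered, both summed per gene and one by one. RNA-Seq was done on hippocampi of 12 male C57BL/6 mice (C57BL/6J in the methods) aged 70 postnatal days, 3 mice in each of 4 groups. Control mice had neither exposure, and their dams drank water only. Ethanol mice had dams that could choose between water and 10% ethanol during gestation and, by the study's methods, for a time after birth. Stress mice had water-drinking dams and were isolated from dam and litter for 3 h each day, on postnatal days 2 to 14. Ethanol + stress mice had both exposures. By the methods, drinking was voluntary, blood alcohol was not measured, and stress was given to part of each litter. The labels do not say which mice were littermates. P-values therefore measure the spread between these mice, some of which may share a litter. Tissue was taken many weeks after the last exposure.

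Alcohol is broken down in steps. An alcohol dehydrogenase, catalase with hydrogen peroxide, or the microsomal cytochrome Cyp2e1 oxidizes ethanol to acetaldehyde, aldehyde dehydrogenases oxidize this reactive compound to acetate, and acetyl-CoA synthetases join acetate to coenzyme A. The class I alcohol dehydrogenase that clears most ethanol in the liver is known to be scarce in brain, where catalase and Cyp2e1 are usually named as the oxidizing enzymes. Most of these enzymes also have everyday substrates such as formaldehyde, retinal, lipid aldehydes and products of lysine breakdown.

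The values are TPM, a measure of transcript abundance corrected for transcript length and library size. They are taken here as scaled between libraries by the authors, because their sums differ. The scaling is not stated in the sources used here. The sums ran from 889222.3 to 1173649.8 per library, and the 3 largest sums belonged to ethanol replicate 2 and ethanol + stress replicates 2 and 3. The libraries hold about 12060000 to 15010000 read pairs, as recovered from the steps between low values. Of those low values, 82.6% to 84.6% per library lay within 0.15 of a whole read pair. A value worth 3 read pairs or fewer is treated as lying at the floor, which covers counting error only. All 4 markers of hippocampal subfields and all 5 neuronal markers were detected in every library. The summed level of 5 choroid plexus markers ran from 39.2 to 7224 TPM over the libraries. In bulk tissue, fewer cells of a type and less RNA per cell cannot be told apart.

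Among enzymes that oxidize alcohols, Adh5 was well expressed and Cyp2e1 was close to absent. Adh5, the class III enzyme that mainly clears formaldehyde bound to glutathione, lies on chromosome 3 (138443093 to 138455499, plus strand, GRCm38) and averaged 74.3 ± 6.01 TPM (SD, n = 12). Its values were 75.8, 72.8 and 67.6 TPM for control, 73.9, 83.9 and 67.8 for ethanol, 78.3, 69 and 70.5 for stress, and 68.7, 79.8 and 83.9 for ethanol + stress mice. The 4 groups overlapped, and the highest values came from ethanol replicate 2 and ethanol + stress replicate 3. Cat, the peroxisomal catalase, lies on chromosome 2 (103453849 to 103485160, minus strand) and averaged 39 ± 2.62 TPM (SD, n = 12). Cat was measured at 35.8, 39.3 and 39.3 TPM for control, 40.5, 41.6 and 34.4 for ethanol, 39.9, 42.9 and 36.4 for stress, and 36.9, 41.8 and 38.8 for ethanol + stress mice. The groups overlapped, with the lowest value in an ethanol and the highest in a stress mouse.

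Cyp2e1, the ethanol-inducible microsomal cytochrome, lies on chromosome 7 (140763739 to 140774987, plus strand). Its values were 0.226, 0.254 and 0.326 TPM for control, 0.359, 0.558 and 0.203 for ethanol, 0.145, 0.0982 and 0.161 for stress, and 0.233, 0 and 0.295 for ethanol + stress mice. The values were worth at most 5.21 read pairs, in ethanol replicate 1, and 8 of 12 libraries were at or under the floor. All stress values were below all control values, but all 3 stress libraries and 2 of the control libraries were at or under the floor, so no fold is given. Adh1, the class I enzyme of liver, had a median of 0.877 TPM, and Adh4, Adh6a, Adh6b and Adh7 reached at most 0.348 TPM in any library. Cyp1a2, another liver cytochrome, was listed at 0 in 11 libraries.

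The 300 bases around the start sites of Adh5 and Cyp2e1 are shown because these genes are at opposite ends of the range of levels among the alcohol-oxidizing members. The windows come from RefSeq (GRCm38.p6), at chr3:138442843-138443142 (plus strand) and chr7:140763569-140763868 (plus strand), written 5′ to 3′ with CpG dinucleotides in capitals.
Adh5: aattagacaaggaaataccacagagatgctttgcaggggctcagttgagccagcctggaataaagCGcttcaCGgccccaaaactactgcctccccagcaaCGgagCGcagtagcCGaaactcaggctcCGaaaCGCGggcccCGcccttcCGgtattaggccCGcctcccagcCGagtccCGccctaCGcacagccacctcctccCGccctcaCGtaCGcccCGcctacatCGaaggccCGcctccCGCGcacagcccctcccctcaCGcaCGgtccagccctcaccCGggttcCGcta
Cyp2e1: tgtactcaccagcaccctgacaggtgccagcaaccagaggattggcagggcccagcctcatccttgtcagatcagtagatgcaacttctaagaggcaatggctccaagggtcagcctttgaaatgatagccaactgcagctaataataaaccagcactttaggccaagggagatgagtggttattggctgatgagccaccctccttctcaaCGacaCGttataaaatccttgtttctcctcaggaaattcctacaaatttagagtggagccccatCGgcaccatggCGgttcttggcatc
The Adh5 window holds 26 CpG and the Cyp2e1 window 4, against a median of 7 over 32851 RefSeq windows of the same length. The letters TATAAA, searched on both strands, are in the Cyp2e1 window and not in this Adh5 window, and 13.6% of all windows hold them. A second RefSeq window of Adh5, at chr3:138436950-138437249 (plus strand), has 3 CpG and holds these letters, so the difference from Cyp2e1 is that of the window printed here, which lies at the start of the gene as annotated. RefSeq windows were matched for 8 of the 10 genes, with Aldh2 and Aldh7a1 unmatched.

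Acetaldehyde itself is the substrate of the mitochondrial enzymes Aldh2 and Aldh1b1 and of the cytosolic Aldh1a1, which also makes retinoic acid from retinal. Aldh2 lies on chromosome 5 (121566027 to 121593824, minus strand) and averaged 106 ± 6.74 TPM (SD, n = 12). Control mice had 109, 106 and 106 TPM, ethanol mice 107, 114 and 94.9, stress mice 99.9, 111 and 97.4, and ethanol + stress mice 108, 118 and 102. The control values were the closest together, and values of each other group lay on both sides of them. Aldh1b1, on chromosome 4 (45799022 to 45804604, plus strand), was the less abundant mitochondrial form at 9.29 ± 1.44 TPM (SD, n = 12). It had 10.7, 9.97 and 9.33 TPM for control, 9.76, 7.92 and 9.97 for ethanol, 9.73, 8.73 and 8.88 for stress, and 12.1, 6.81 and 7.58 for ethanol + stress mice. The ethanol + stress group held both the highest and the lowest value of the 12 libraries.

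Aldh1a1, on chromosome 19 (20492715 to 20643465, plus strand), was the most abundant member at 130 ± 32.5 TPM (SD, n = 12) and also the most variable of those above the floor. Its values were 116, 114 and 106 TPM for control, 125, 193 and 95 for ethanol, 130, 116 and 102 for stress, and 112, 185 and 163 for ethanol + stress mice. Ethanol replicate 2 and ethanol + stress replicates 2 and 3 lay far above the control range, while ethanol replicate 3 was the lowest of all, below every control mouse.

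Other aldehydes are the business of Aldh3a2, the fatty aldehyde dehydrogenase of the endoplasmic reticulum, and Aldh7a1, which acts in lysine breakdown. Aldh3a2 (chromosome 11, 61223417 to 61267464, minus strand) averaged 43 ± 2.39 TPM (SD, n = 12). Group means were 44.8 ± 1.63, 42.5 ± 2.84, 43.4 ± 2.1 and 41.4 ± 2.6 TPM (SD, n = 3 each) for control, ethanol, stress and ethanol + stress mice. Aldh7a1 (chromosome 18, 56509687 to 56572951, minus strand) averaged 77.1 ± 6.94 TPM (SD, n = 12), with group means of 77.6 ± 4.31, 76.5 ± 6.73, 74.7 ± 7.87 and 79.6 ± 10.9 TPM (SD, n = 3 each) in the same order. Both genes had overlapping values in all groups.

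Acetate is activated by Acss1 in mitochondria and by Acss2 in the cytosol and nucleus, where the acetyl-CoA can serve histone acetylation. Acss2 (chromosome 2, 155517948 to 155585724, plus strand) was the steadiest member at 41.7 ± 1.46 TPM (SD, n = 12), a coefficient of variation of 3.51%. It had 43.3, 40.3 and 40.4 TPM for control, 41, 39.7 and 41.9 for ethanol, 42.2, 42.6 and 43.1 for stress, and 39.6, 42 and 44 for ethanol + stress mice. On the log2 scale only 0.36% of 14455 genes with a mean of 1 TPM or more varied less over the 12 libraries, whereas 84.5% varied less than Aldh1a1. Acss1 (chromosome 2, 150618105 to 150668500, minus strand) averaged 18 ± 1.79 TPM (SD, n = 12), with 18, 17.4 and 18.4 TPM for control, 17.8, 20.7 and 17.8 for ethanol, 15.3, 18.6 and 17.3 for stress, and 15, 19.3 and 20.9 for ethanol + stress mice. Control values overlapped with each exposed group.

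In order of mean TPM the genes were Aldh1a1, Aldh2, Aldh7a1, Adh5, Aldh3a2, Acss2, Cat, Acss1, Aldh1b1 and Cyp2e1. Neighbours whose ranges overlapped over the 12 libraries were Aldh1a1 and Aldh2, Aldh7a1 and Adh5, Aldh3a2 and Acss2, and Acss2 and Cat. The ranges of the other neighbours were apart in all 12 libraries, as for Aldh2 with a lowest value of 94.9 TPM and Aldh7a1 with a highest of 90.2 TPM. The plot of levels by library shows the same values.

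**Figure D1:**
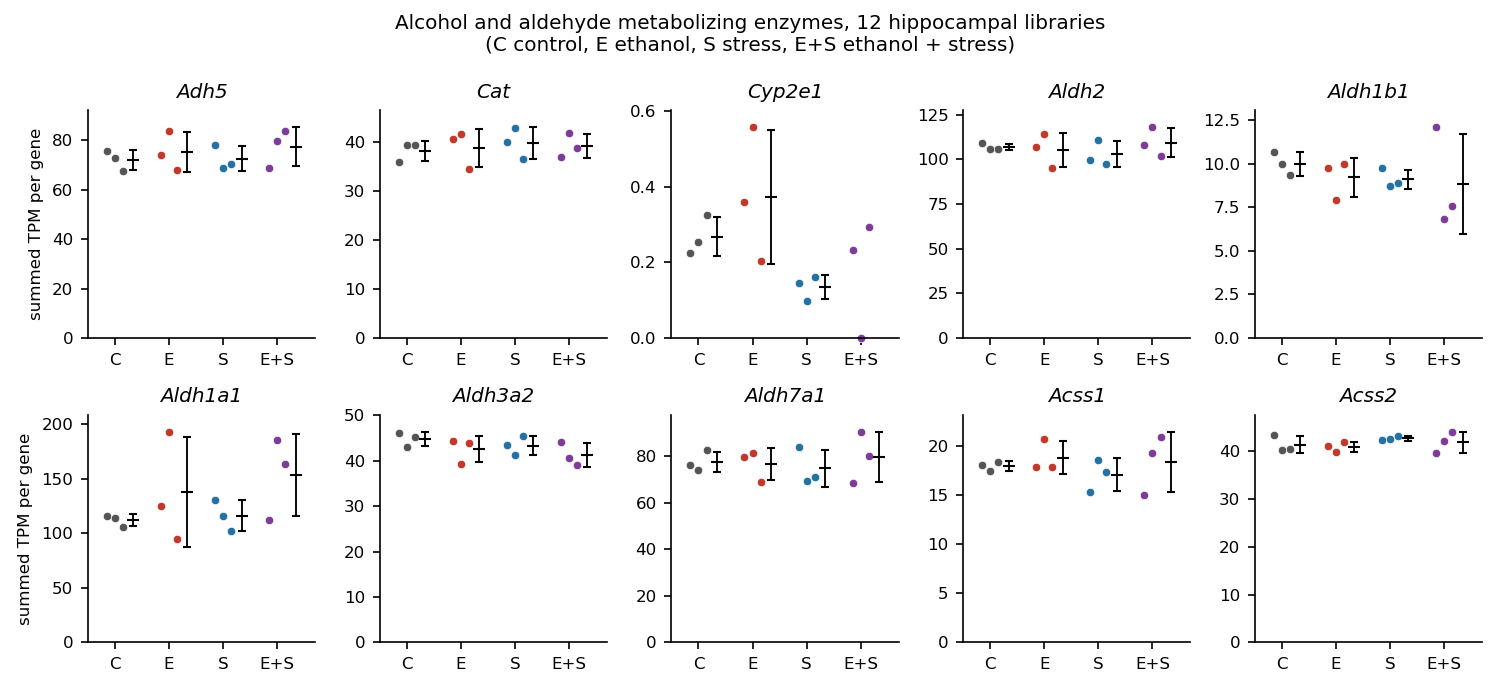
Summed TPM of each gene (vertical axis, from 0, a separate scale per panel) in the 3 libraries of each group, in replicate order from left to right. Black bars beside the points are the mean ± SD and are left out where a library is at 0. Acss2 stayed between 39.6 and 44 TPM, and Aldh1a1 ran from 95 to 193 TPM.

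The design asks whether either early exposure, or both, left a difference in these enzymes in adulthood. No summed level of the 10 enzymes was called at an unadjusted p under 0.01 in any comparison (limma on log2(TPM + 0.5), two-sided, 18434 genes tested). Over all tested genes, 0.678% were called for ethanol, 0.51% for stress and 0.971% for ethanol + stress against control, so that 0 of 10 is near that background. For ethanol averaged over separation 1.12% of genes were called, for separation averaged over ethanol 0.586%, and for the interaction 0.461%, again with 0 of 10 enzymes in each. Enzymes with an unadjusted p under 0.05 numbered 0 in each of these comparisons except separation averaged over ethanol, where 1 of 10, Cyp2e1, had one (limma, Benjamini-Hochberg adjusted p = 1), beside 3.28% of all genes and at the floor values given above. In the other comparisons the share of all genes ran from 2.4% to 5.79%. The median log2 fold change of the 10 enzymes was 0 for ethanol, -0.05 for stress and 0.03 for ethanol + stress against control, beside 0.02, 0 and 0.02 over all tested genes. Groups that did not overlap with control numbered 0 for ethanol, 1 (Cyp2e1) for stress and 0 for ethanol + stress, beside 8.25%, 7.2% and 10.2% of all tested genes.

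For Acss2 the 95% interval of the fold on the TPM + 0.5 scale ran from 0.886 to 1.1 for ethanol, 0.924 to 1.15 for stress and 0.907 to 1.13 for ethanol + stress against control. For Aldh2 the intervals were 0.855 to 1.12, 0.837 to 1.1 and 0.89 to 1.17, and for Cat 0.874 to 1.18, 0.895 to 1.21 and 0.884 to 1.19. Adh5, Aldh3a2 and Aldh7a1 had intervals within 0.807 to 1.26 in all 3 comparisons. Wider ones were found for Acss1 (0.781 to 1.27 over the 3 comparisons), for Aldh1b1 (0.654 to 1.22) and for Aldh1a1, which reached 1.67 for ethanol and 1.9 for ethanol + stress. All of these intervals include 1.

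**Figure D2:**
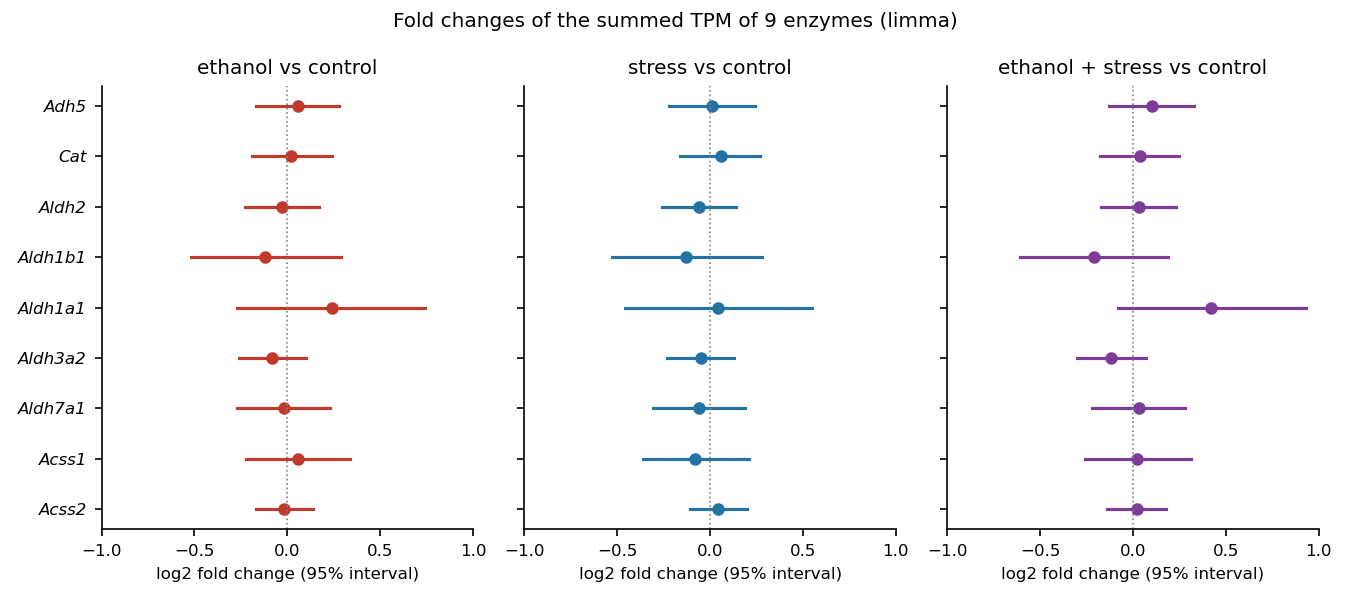
Log2 fold change of the summed TPM (horizontal axis; points are limma estimates and lines their 95% intervals) for 9 enzymes against control, in 1 panel per exposed group. Cyp2e1 is not drawn because most of its values are at the floor. Every line crosses 0, and the estimate farthest from 0 is that of Aldh1a1 in ethanol + stress mice, at 0.42.

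Aldh1a1 had the largest estimate of these enzymes. Against a control mean of 112 ± 5.66 TPM, the mean was 138 ± 49.9 for ethanol, 116 ± 14 for stress and 153 ± 37.3 with both exposures (SD, n = 3 each). For ethanol + stress the log2 fold change was 0.42 (SE 0.23, 95% interval -0.08 to 0.93, limma, Benjamini-Hochberg adjusted p = 0.791), which was not called and whose interval includes 0. For ethanol averaged over separation it was 0.31 (SE 0.16, 95% interval -0.05 to 0.66, adjusted p = 0.76 by the same limma fit). The first estimate rests on ethanol + stress replicates 2 and 3, and the second on these and ethanol replicate 2. These 3 libraries had 163 to 193 TPM where the other 9 libraries had 95 to 130. Leaving them out takes away the 3 highest Aldh1a1 values and leaves 1 ethanol + stress mouse, replicate 1, assumed to vary like the other groups. The estimates were then 0.00 and -0.04, values that this choice of libraries lowers by itself. Without ethanol replicate 2 alone, the estimate for ethanol against control turned from 0.24 to -0.04, and without ethanol replicate 3 it was 0.47. Without ethanol + stress replicate 1, the estimate for ethanol + stress was 0.63. Neither was called.

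The same 3 libraries have the largest sums of values. After rescaling all libraries to a common total, Aldh1a1 averaged 117 ± 4.17 for control, 132 ± 29.4 for ethanol, 120 ± 12.7 for stress and 144 ± 21.3 for mice with both exposures (SD, n = 3 each), and the ethanol + stress estimate was 0.29 (SE 0.15). The same rescaling moved the median over all genes in this comparison from 0.02 to -0.09. The 3 libraries also stood apart in other members. Aldh1b1 was lowest there, at 6.81 to 7.92 TPM where the others had 8.73 to 12.1, and so was Aldh3a2, at 39.1 to 40.7 TPM against 41.2 to 46.2. Acss1 (19.3 to 20.9 TPM against 15 to 18.6) and Adh5 (79.8 to 83.9 against 67.6 to 78.3) were highest there. Without ethanol + stress replicate 1, which has the highest Aldh1b1 value, the ethanol + stress estimate for Aldh1b1 was -0.45 and was called (adjusted p = 0.237, limma), and without the 3 libraries it was 0.27, from ethanol + stress replicate 1 alone. Acss2 gave 39.7 to 44 TPM in these libraries and 39.6 to 43.3 in the others.

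Of 11 lists of cell type and region markers, 3 had summed levels in these libraries apart from those of the other 9, namely astrocyte, blood and hippocampal subfield markers, and 8 overlapped. The summed level of 6 astrocyte markers was 1979 to 2283 TPM in the 3 libraries and 1412 to 1870 in the other 9, and that of 5 blood markers was 3977 to 6815 against 1603 to 3472. The 4 markers of hippocampal subfields gave 145 to 152 TPM against 176 to 226. Among lists that overlapped, oligodendrocyte markers (5 genes) gave 4312 to 4962 TPM against 2330 to 4748, neuronal markers 2842 to 3046 against 3017 to 3263, and choroid plexus markers 80.5 to 7224 against 39.2 to 5250. No marker of these lists was at 0 in all libraries. By group, the astrocyte sum was 1702 to 1819 TPM in control, 1412 to 1979 in ethanol, 1647 to 1784 in stress and 1505 to 2283 with both exposures. The blood sum was 1603 to 2022, 3146 to 6815, 2593 to 3392 and 2454 to 6480 TPM in the same order, with all 5 markers higher on average than in control in each exposed group. Their part in the levels of Aldh1a1 and the other enzymes was not tested.

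The main 3 transcripts of Aldh1a1 were all high in the same libraries. Aldh1a1-201, a coding form of 13 exons, made up 49.1% of the gene and had 83 to 94.5 TPM in the 3 libraries and 45 to 63.7 in the other 9. Both other forms start far upstream of it. Aldh1a1-205 (24.9% of the gene), the shortest, had 41.6 to 50.7 against 25.1 to 31.9 TPM, and Aldh1a1-206 (23.8%) had 34.9 to 45.8 against 21.8 to 32.5 TPM. Aldh1a1-205 had 28.3, 27.4 and 25.1 TPM for control, 29.5, 50.7 and 25.4 for ethanol, 31.2, 29.2 and 25.5 for stress, and 31.9, 42.6 and 41.6 for ethanol + stress mice, so that all ethanol + stress values lay above control, as groups did not overlap for 10.2% of all tested transcripts in this comparison. Its estimate for ethanol + stress was 0.50 (SE 0.22, adjusted p = 0.888 by limma), not called, and 0.24 without the 3 libraries, again from ethanol + stress replicate 1 alone. Few of the bases set these forms apart: of 2023 stretches of 31 bases in Aldh1a1-201, 33 are in no other annotated transcript, so the division of read pairs among them is an estimate. The neighbouring Aldh1a7 shares 281 stretches with Aldh1a1-201, but had at most 0.419 TPM.

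**Figure D3:**
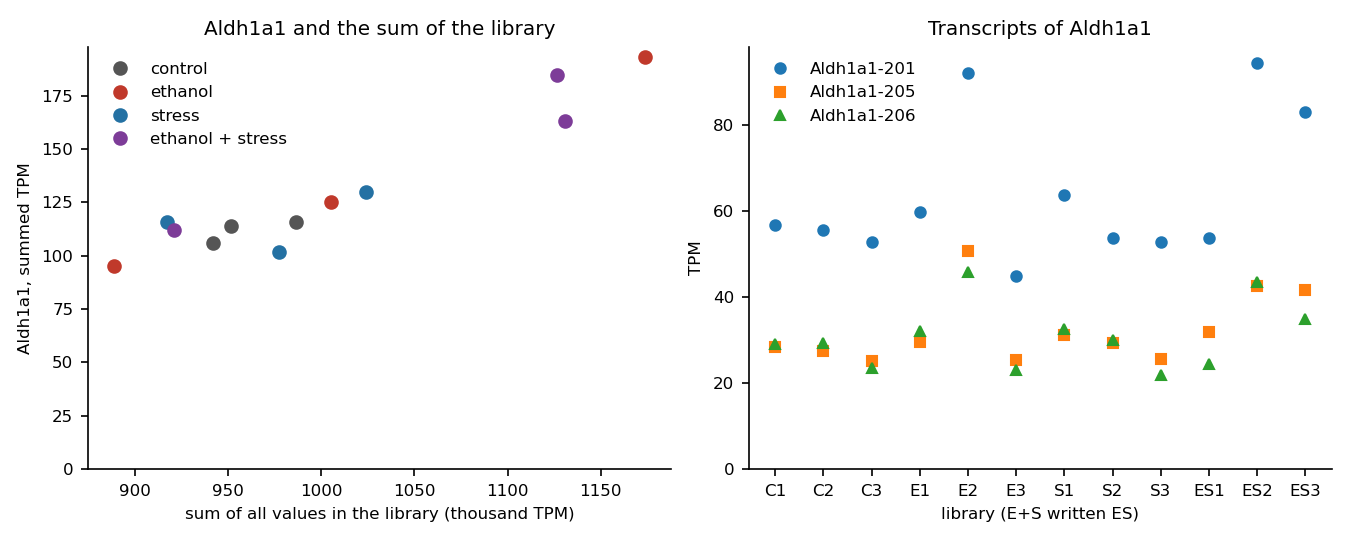
Left, summed TPM of Aldh1a1 (vertical axis, from 0) against the sum of all values of the library (horizontal axis, TPM), 1 point per library. Right, TPM of its 3 main transcripts by library. The 3 libraries with the largest sums are the 3 with the highest Aldh1a1, at 163 to 193 TPM, and all 3 transcripts are highest there.

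At transcript level 39 of the 60 transcripts were tested and 3 were at 0 in every library. Against control, 1 of 39 was called for ethanol (1.26% of all 59852 tested transcripts, 0.896% in the same, higher direction). No transcript was called for stress (0.914%), and 1 was called lower for ethanol + stress (1.21%, 0.446% lower). No transcript was called for ethanol averaged over separation (1.47%) or for separation averaged over ethanol (0.934%), and 2 were called for the interaction (0.854%), 1 higher (0.368%) and 1 lower (0.486%). An unadjusted p under 0.05 was found for 3 of 39 transcripts for ethanol (5.43% of all), 2 for stress (3.88%) and 3 for ethanol + stress (5.57%). It was found for 2 for ethanol averaged over separation (6.52%), 1 for separation averaged over ethanol (4.14%) and 2 for the interaction (4.06%). All called transcripts were minor non-coding forms of Acss1 and Aldh7a1 worth at most 5.61 read pairs in any library, and no limma adjusted p was under 0.493.

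Both called Acss1 forms are short and non-coding. Acss1-201, with 14 exons, made up 92.6% of the gene. Acss1-203 (ENSMUST00000141785.1) ends inside the second intron, of which it keeps 231 bases, and is annotated as a retained intron. The end of its second exon is printed because it is the part that Acss1-201 lacks (GRCm38, chr2:150659605-150659865, minus strand, 5′ to 3′), with the last bases of the shared exon in lower case and the intron bases in capitals.
Acss1-203: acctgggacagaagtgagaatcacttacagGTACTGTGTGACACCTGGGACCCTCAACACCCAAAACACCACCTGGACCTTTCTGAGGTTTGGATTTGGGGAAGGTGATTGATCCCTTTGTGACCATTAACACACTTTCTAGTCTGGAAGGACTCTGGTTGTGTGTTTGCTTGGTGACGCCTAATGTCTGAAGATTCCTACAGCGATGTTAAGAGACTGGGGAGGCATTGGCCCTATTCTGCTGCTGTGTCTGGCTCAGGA
Acss1-202 (ENSMUST00000141500.1), a processed transcript without a coding frame, has a first exon of its own of 163 bases, the last of them 80 bases upstream of the start of Acss1-201, and then shares 3 whole exons with it. The RefSeq window around the start of Acss1-201 (GRCm38.p6, chr2:150668191-150668490, minus strand, 5′ to 3′) is shown because it holds 153 bases of the first exon of Acss1-202, in capitals. This window has 23 CpG.
Acss1: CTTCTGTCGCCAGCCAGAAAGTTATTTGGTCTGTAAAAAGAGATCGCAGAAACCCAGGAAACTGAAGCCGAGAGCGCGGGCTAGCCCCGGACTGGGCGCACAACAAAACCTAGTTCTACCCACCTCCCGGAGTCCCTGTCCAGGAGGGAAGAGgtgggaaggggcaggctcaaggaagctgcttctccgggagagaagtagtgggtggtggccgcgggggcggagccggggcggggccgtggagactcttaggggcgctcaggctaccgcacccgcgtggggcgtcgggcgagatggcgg

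Acss1-203 was listed at 0 in all 3 control mice, at 1.39, 1.33 and 0.342 TPM in ethanol, at 0.393, 0.442 and 0.389 in stress, and at 0.321, 0 and 0 in ethanol + stress mice. These values are worth 5.6, 4.6 and 1.46 read pairs in the ethanol mice and at most 1.66 in any other. All ethanol and all stress values were above the 0 listed in control. Groups that did not overlap were found for 10.2% and 8.22% of all tested transcripts in these comparisons. For ethanol against control the log2 fold change was 1.51 (SE 0.31, Benjamini-Hochberg adjusted p = 0.493, limma, 0.136 to 0.853 over the alternatives). Of the 3 ethanol mice, 2 were over the floor. This estimate depends on the number added before the log, and was 3.29 with 0.1 and 0.97 with 1. Set against the floor of 3 read pairs per control library (0.83 TPM on average), the ethanol mean of 1.02 TPM was 1.23 times as high. This mean counts 1 library under the floor, so the ratio is no lower bound. For stress against control the estimate was 0.86 (SE 0.31, limma adjusted p = 1), with all 3 stress values at or under the floor. The interaction was -2.14 (SE 0.44, limma adjusted p = 0.738), with -4.95 when 0.1 was added before the log and -1.33 when 1 was. Without the 3 libraries of the largest sums, with 1 ethanol + stress mouse left, it was -1.48 and not called. Of 628 stretches of 31 bases in Acss1-203, 230 are its own and 43 are shared with the gene E130215H24Rik.

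Acss1-202 showed another pattern. Its values were 1.49, 0.52 and 0.967 TPM for control, 0, 1.27 and 0.599 for ethanol, 0.485, 0.697 and 0.454 for stress, and 0 in every ethanol + stress mouse. Control values were worth 5.61, 1.77 and 3.52 read pairs. For ethanol + stress against control the log2 fold change was -1.52 (SE 0.41, adjusted p = 0.708 by limma), with 2 of 3 control mice over the floor, and the groups did not overlap, as in 10.2% of all tested transcripts. Set against the floor of 3 read pairs per library (0.777 TPM on average), the control mean of 0.992 TPM was 1.28 times as high. It too counts 1 library under the floor, so the ratio is no lower bound. The log2 estimate was -3.35 with 0.1 added before the log and -0.97 with 1. The call was lost when any ethanol + stress mouse (estimates of -1.52) or control replicate 1 (-1.29) or 3 (-1.51) was left out, and without the 3 libraries of the largest sums (-1.52, with 1 ethanol + stress mouse left). The coding Acss1-201 had 16.5, 16.8 and 16 TPM for control, 16.4, 18.1 and 14.5 for ethanol, 14.4, 17.4 and 16.5 for stress, and 14.7, 19.3 and 19.9 for ethanol + stress mice, which overlapped in every comparison (limma adjusted p of 0.998, 1 and 0.918).

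**Figure D4:**
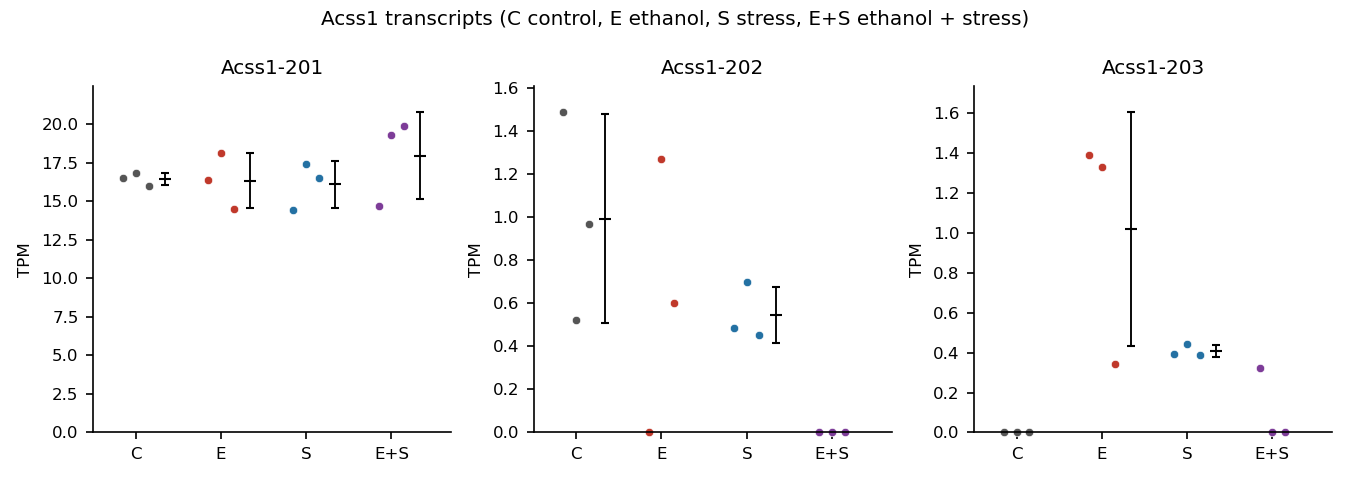
TPM of the coding Acss1-201 and of the minor Acss1-202 and Acss1-203 (vertical axes, from 0, different scales) in the 3 libraries of each group. Black bars beside the points are the mean ± SD and are left out where a library is at 0. Acss1-203 is at 0 in all control libraries and Acss1-202 in all ethanol + stress libraries, on scales under 2 TPM, while Acss1-201 lies between 14.4 and 19.9 TPM throughout.

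The other called transcript was Aldh7a1-205 (ENSMUST00000171851.1), a retained intron form. Its values were 0.944, 1.13 and 0 TPM for control, 0, 0.815 and 0 for ethanol, 0 for each of 3 stress mice, and 0.948, 0.954 and 0.963 with both exposures, at most 3.11 read pairs. For the interaction the estimate was 2.15 (SE 0.66, adjusted p = 1, limma), and it was not called without control replicate 1 (1.93) or 2 (1.84), ethanol replicate 1 or 3 (1.92 each), or any single stress or ethanol + stress mouse. Values within the stress and within the ethanol + stress group were nearly equal, so leaving out any of these mice hardly moved the estimate. The estimate was 4.67 with 0.1 added before the log and 1.36 with 1. Of the 12 libraries, 9 were at or under the floor, and the ethanol + stress mean of 0.955 TPM was 1.01 times the average floor of the stress libraries (0.947 TPM), so the size of this difference cannot be read. Acss1-203, Acss1-202 and Aldh7a1-205 were at 0 in 5, 4 and 6 libraries, and each would have failed the filter (above 0.1 TPM in 6 libraries) without the 3 libraries of the group where it was highest, so that the groups compared decided whether it was tested. The main coding forms Aldh7a1-201 (76.9% of the gene) and Aldh7a1-208 (17.5%) were not called in any comparison. Of 1884 stretches of 31 bases in Aldh7a1-201, 0 are its own, so its share is an estimate.

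Aldh2 is divided among 4 coding transcripts above 5% of the gene. Aldh2-202 held 46.2%, Aldh2-206 31.7%, Aldh2-207 13.2% and Aldh2-201, the longest at 3867 bases, 7.4%. Aldh2-201 had 6.69, 6.34 and 6.97 TPM for control, 8.19, 7.83 and 8.73 for ethanol, 7.05, 8.7 and 8.58 for stress, and 8.45, 8.43 and 8.33 for ethanol + stress mice, worth 174 to 299 read pairs. All 9 exposed mice lay above all 3 control mice, a pattern noticed after its values were seen and shared by 0.413% of all tested transcripts. The summed blood markers made the same split, with 2454 to 6815 TPM in the exposed and 1603 to 2022 in the control mice, and their part in this result was not tested. None of the comparisons was called: the log2 fold changes were 0.29 for ethanol (adjusted p = 0.909), 0.26 for stress (adjusted p = 1) and 0.31 for ethanol + stress (adjusted p = 0.888), each with SE 0.13 by limma. Rescaled to a common total, the ethanol and ethanol + stress values were 0.21 and 0.19. The medians over all transcripts moved from 0.05 to -0.01 and from 0.04 to -0.05 with this rescaling. These comparisons share the control mice. Of 3837 stretches of 31 bases in Aldh2-201, 1993 are its own and 100 also occur in Gm42879. Aldh2-206 has 25 of its own among 772 and Aldh2-207 has 25 among 593, so their shares are less certain estimates. The other 3 forms overlapped with control in every group, with Aldh2-202 at 49 ± 4.86, 46.8 ± 4.2, 48.6 ± 3.17 and 51.7 ± 3.53 TPM (SD, n = 3 each) in control, ethanol, stress and ethanol + stress mice.

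**Figure D5:**
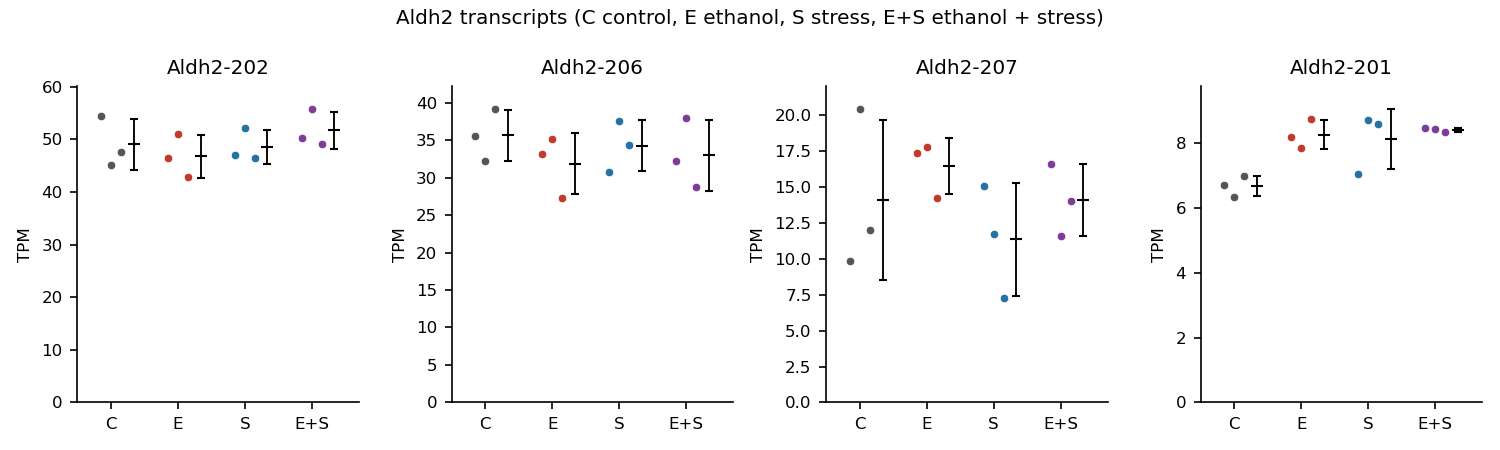
TPM of the 4 main Aldh2 transcripts (vertical axes, from 0, different scales) in the 3 libraries of each group, with the mean ± SD. Aldh2-201 lies between 6.34 and 6.97 TPM in control and between 7.05 and 8.73 TPM in the exposed mice, and the other 3 overlap.

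The remaining genes were carried by 1 main form. Adh5-201 held 97% of Adh5, Cat-201 held all of Cat, Aldh1b1-201 held nearly all of Aldh1b1, Aldh3a2-202 held 72.7% and Acss2-201 held 75.9%. Acss2-203 (13.5% of its gene) had 4.69, 6.45 and 5.09 TPM in control and 6.78, 8.01 and 6.75 in ethanol + stress mice, without overlap (10.2% of all tested transcripts) and not called (0.39, SE 0.31, limma adjusted p = 0.891). Over the 12 libraries together, the other 36 transcripts held under 5% of their gene each. Their highest value in any library was 13.5 TPM, and 25 of them were at or under the floor in 6 or more libraries.

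Of 53 further genes of these pathways, 49 were tested. None was called for ethanol, for stress or for the interaction, beside 0.678%, 0.51% and 0.461% of all genes. For ethanol + stress against control 1 was called higher, beside 0.694% of all genes, and 1 lower, beside 0.277%. Pex13, part of the docking complex that imports catalase into peroxisomes, had 21.5, 22.9 and 21.7 TPM for control, 25.3, 24.5 and 25.2 for ethanol, 22.8, 22.1 and 23.9 for stress, and 25.3, 29.1 and 25.3 for ethanol + stress mice. It was 0.26 higher in ethanol + stress mice on the log2 scale (SE 0.08, adjusted p = 0.791, limma) and 0.19 higher for ethanol averaged over separation (SE 0.06, adjusted p = 0.76), the only call of the 49 there, beside 0.825% of genes. After rescaling to a common total these estimates were 0.13 and 0.09 and were not called. The same rescaling moved the medians over all genes from 0.02 to -0.09 and from 0.02 to -0.06. The calls held in 6 of 18 and 9 of 23 alternatives. Aldh3a1, which oxidizes aromatic and lipid aldehydes, had 1.27, 1.23 and 1.55 TPM for control, 1.33, 1.53 and 0.983 for ethanol, 1.09, 0.78 and 1.05 for stress, and 0.444, 0.661 and 0.742 for ethanol + stress mice. It was lower by limma in ethanol + stress mice (-0.73, SE 0.18, adjusted p = 0.791, not called at -0.62 without ethanol + stress replicate 1). It was also lower for separation averaged over ethanol (-0.50, SE 0.13, limma adjusted p = 1), the only call of the 49 there, beside 0.277% of genes.

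None of the other lists had a call, nor did the 3 tested genes of the other alcohol dehydrogenases. The aldo-keto and carbonyl reductases with the esterase Esd (9 genes, led by Akr1a1 at 444 ± 14.3 TPM in control, SD, n = 3) had 0 of 9 called in each comparison, where 0.461% to 1.12% of all genes were called, so that 0 is near the background for lists of this size. So did the 8 genes of acetate and acetyl-CoA, led by Acly at 92.6 ± 7.22 TPM in control (SD, n = 3), and the 7 tested genes of microsomal electron transfer and other cytochromes, led by Cyb5a at 149 ± 8.25 TPM. Esd, the esterase that completes the formaldehyde route begun by Adh5, had 135, 135 and 143 TPM for control, 148, 194 and 110 for ethanol, 144, 124 and 140 for stress, and 119, 176 and 177 for ethanol + stress mice. Its 3 highest values came from the same libraries as those of Aldh1a1.

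Genes with the profile most like that of Aldh1a1 were Mrpl53, Hibch and Hspe1, with a root mean square difference of 0.089, 0.093 and 0.094 on the log2 scale over 12 libraries, among 14455 genes. Their 3 highest libraries were those of Aldh1a1. For Aldh1b1 the closest were Syt3 (0.082), Camk1g (0.084) and Rnf40 (0.085), and for Acss1 they were Grik2 (0.053), Paxbp1 (0.065) and Pou6f1 (0.076). These are descriptions over libraries that share their scaling, and carry no test.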

How the data were processed

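Hippocampal RNA of 12 mice was sequenced from stranded total RNA libraries depleted of rRNA. What was deposited is a signal, made by the authors with kallisto and sleuth against the Ensembl mouse transcriptome (GRCm38, also named mm10): TPM per transcript, taken here as scaled between libraries because the sums differ, with no replicate pooled. The submitters' notes also name CASAVA, and versions are not given in the sources used here. The authors' read-level steps divide read pairs among transcripts by an estimate, which is least certain for forms that share most bases.

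Of 115270 transcripts, 113580 were matched by identifier to the GENCODE annotation of GRCm38 and summed per gene; the rest held 0.518% to 0.58% of each library. Groups came from the labels. A sum or transcript entered the fit if 6 or more libraries had 0.1 TPM. The fit used limma 3.58.1 (R 4.3.3, lmFit and eBayes with trend, two-sided) on log2(TPM + 0.5), with all 12 libraries in one model of the 4 groups. Features with an unadjusted p under 0.01 were called, and Benjamini-Hochberg adjustment ran over everything fitted. The filter keeps a form that is high in 6 libraries, and a fold on this scale understates changes of low transcripts. TPM hold no depth, so read pairs were recovered from low values, and were used for floors only. The model was also run on simulated data, with means and spread taken from these libraries. Python 3.11.15, pandas 2.3.3, numpy 2.4.6 and matplotlib 3.10.9 were used.

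The genes, lists and tests were chosen with earlier results of these data known. Named were all 10 genes, their transcripts with 5% or more of the gene or a call, called genes of the pathway lists with the leading genes of each, and the closest profiles of the 3 most variable genes with a mean of at least 1 TPM. Alternatives were pseudocounts of 0.1 and 1, other filters and scalings, eBayes without trend, a replicate block, fewer groups and leaving out each library. Removing each library's trend over length and leaving out the 3 libraries of the largest sums were chosen after seeing the data. The study's methylation libraries were not analysed here.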

Additional observations from a re-analysis of the deposited data

Results flagged for a closer look

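Acss1-203, the intron-retaining form of Acss1, had an unadjusted p under 0.01 in the interaction test of ethanol and separation, not after adjustment. The values do not show that the effect of ethanol differed, because the control, stress and ethanol + stress libraries were all at or under the floor. The filter needs 6 libraries above 0.1 TPM, and the form passed it only with its 3 ethanol libraries counted. It also needed its 3 stress libraries to pass. Ethanol replicate 3, at 0.342 TPM, was under the floor and below every stress value. The estimate for separated minus unseparated mice was -2.14 on the log2 scale (Benjamini-Hochberg adjusted p = 0.738, limma), and ran from -4.95 to -1.33 with the number added before the log. Unseparated mice had 0 in each control and 0.342 to 1.39 TPM in the ethanol libraries. Separated mice had 0.389 to 0.442 TPM with stress alone and 0.321, 0 and 0 with both exposures. In all 6 separated mice these values did not reach the floor (3 read pairs), so no direction is read there, and 2 ethanol libraries were over it, at 5.6 and 4.6 read pairs.

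The same test gave 2.15 for Aldh7a1-205, the intron-retaining form of Aldh7a1 (adjusted p = 1, limma), and 1.36 to 4.67 with the number added before the log. Its size cannot be read, because 9 of 12 libraries did not exceed the floor, and it passed the filter with exactly 6 libraries, 3 of them the ethanol + stress libraries where it is high. It was listed at 0 in all 3 stress mice and at 0.948 to 0.963 TPM in ethanol + stress mice, whereas 2 of 3 control and 1 of 3 ethanol mice were above 0, at most 3.11 read pairs.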

How the results depend on the processing

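Transcripts worth a few read pairs are limited by depth, and each group has 3 mice. Of 4152 recomputed fold changes of the named genes and transcripts, 4040 kept their direction or changed it by less than the standard error, on the same side of the threshold, 45 lost and 11 gained a call, and 56 reversed. The count of enzymes called from sums was 0 in every comparison and alternative, except 1 for ethanol + stress without ethanol + stress replicate 1. Leaving out 1 library gave 0 to 1 there. Among transcripts, leaving out 1 library gave 1 to 1 calls for ethanol, 0 to 1 for stress, 0 to 1 for ethanol + stress, 0 to 2 for ethanol averaged over separation, 0 to 1 for separation averaged over ethanol and 1 to 2 for the interaction. With a minimum of 1 TPM, under which the called transcripts were not tested, calls were 0 for ethanol, 0 for ethanol + stress and 0 for the interaction. With a pseudocount of 0.1 they were 1 for stress and 1 for ethanol averaged over separation, with only the groups compared 1 for stress and 2 for ethanol + stress, where Aldh1a1-205 was added, with no filter 1 for the interaction, with the length trend removed 1 for ethanol averaged over separation, and without the 3 libraries of the largest sums 0 for ethanol + stress and 1 for the interaction. The cause of these changes, apart from the filter, was not tested. Acss1-203 in ethanol mice was called in all 17 alternatives that tested it (adjusted p 0.136 to 0.853). These alternatives share the same libraries, and every control value was 0, so the calls are no independent support. The form passed the main filter only with its ethanol libraries counted.

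Rescaling to a common total moved the median log2 fold change of all genes in ethanol + stress mice from 0.02 to -0.09. Uncalled estimates then turned negative for ethanol + stress in Cat (-0.10), Acss1 (-0.11), Acss2 (-0.12), Adh5 (-0.03), Aldh2 (-0.11), Aldh7a1 (-0.11), Adh5-201 (-0.06), Cat-201 (-0.10) and Aldh2-202 (-0.06). For ethanol averaged over separation they did so in Cat (-0.10), Acss1 (-0.02), Adh5 (-0.03), Aldh2 (-0.07), Aldh7a1 (-0.07), Adh5-201 (-0.06), Cat-201 (-0.10), Acss1-201 (-0.03), Aldh7a1-201 (-0.01) and Aldh2-202 (-0.09).

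Leaving out the 3 libraries of the largest sums leaves 1 ethanol + stress mouse, replicate 1, assumed to vary like the other groups, so the ethanol + stress values given here are that mouse against control. Estimates for ethanol + stress then reversed in Acss1 (-0.25), Acss2 (-0.06), Adh5 (-0.07), Aldh1b1 (0.27), Aldh7a1 (-0.18), Adh5-201 (-0.08), Acss1-201 (-0.16), Aldh1b1-201 (0.27), Aldh7a1-201 (-0.05), Aldh3a2-202 (0.05), Aldh1a1-201 (-0.03) and Aldh1a1-206 (-0.14). For ethanol averaged over separation they reversed in Aldh3a2 (0.00), Acss1 (-0.09), Adh5 (-0.05), Aldh1b1 (0.19), Aldh1a1 (-0.04), Aldh7a1 (-0.09), Adh5-201 (-0.09), Acss1-201 (-0.11), Aldh1b1-201 (0.19), Aldh7a1-201 (-0.04), Aldh3a2-202 (0.01), Aldh1a1-201 (-0.08) and Aldh1a1-206 (-0.08). The same held for ethanol in Aldh1a1 (-0.04) and Aldh1a1-201 (-0.09), for the interaction in Cyp2e1 (0.19), Acss1 (-0.16) and Aldh7a1 (-0.05), and for separation averaged over ethanol in Aldh1b1 (0.08), Aldh1b1-201 (0.08) and Acss1-203 (0.12). Leaving out 1 library reversed 4 uncalled estimates. For ethanol, Aldh1a1 ran from -0.04 to 0.47 and Aldh1a1-201 from -0.09 to 0.43, both lowest without ethanol replicate 2. Acss2-203 for stress ran from -0.26 to 0.26, highest without stress replicate 1, and Aldh7a1-205 for ethanol + stress from -0.08 to 0.78, lowest without control replicate 3.

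Replicate numbers did not pair the libraries. Over 18 same-numbered pairs the correlation of deviations from the group means ran from -0.355 to 0.471, 3 were over 0.1, and 3 libraries correlated best with their own number. With a replicate block the counts of calls were unchanged, at 1 transcript for ethanol, 1 for ethanol + stress, 2 for the interaction and 0 elsewhere. Pex13 was not called with the block for ethanol + stress or for ethanol averaged over separation, with estimates of 0.26 and 0.19 (limma adjusted p of 0.823 and 0.803).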
